A study of Danio rerio with 6 samples.

Results

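The globin and erythroid genes followed here were measured on 6 Affymetrix GeneChip Zebrafish arrays that compared sorted retinal cells of adult fish. They are the 13 probe sets, of 15502 tested, whose annotated symbol is hbba2 or slc4a1a or begins with hba, hbb, alas2 or gata1. Of these, 9 were annotated to 1 gene and 4 to several near-identical globin genes, which are given as family values and to no single gene. GFP-positive cells (3 arrays) and GFP-minus cells (3 arrays) were both sorted from untreated adults that carried the transgene Tg(3.2TalphaCP:EGFP). Its promoter, that of the cone transducin gene gnat2, drives EGFP in cones. Retinae freed of lens and pigment epithelium were pooled and dissociated with trypsin, and single cells were gated on EGFP fluorescence against non-transgenic samples. Both populations carry the tissue label cone cells, although the GFP-minus samples are the cells without EGFP signal. The labels call the replicates biological, so p-values measure the spread between such samples. They do not say whether equal replicate numbers stand for shared fish.

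Hemoglobin is a tetramer of α- and β-globin chains, each of which holds a heme. In zebrafish, as in mammals, embryonic globins serve the first red cells and are replaced by adult globins during larval life. Heme is built in a chain of enzyme steps that starts with 5-aminolevulinate synthase, of which alas2 is the erythroid form and alas1 the form of other tissues. The red cells of fish keep their nucleus. Their membrane carries the anion exchanger band 3 (slc4a1a), which swaps chloride for bicarbonate and ties the membrane to the spectrin skeleton, and the transcription factor Gata1 is needed to form them in zebrafish. Red cells are not part of the neural retina and circulate in its blood vessels.

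In the RefSeq annotation (assembly GRCz12tu, used for names and gene order only), the globin genes lie in 2 clusters. The larger one holds 12 of the named genes, in the order hbaa2, hbba2, ba1l, hbaa1, hbba1, hbbe1.1, hbae1.1, hbbe1.2, hbae1.2, hbbe1.3, hbae1.3 and hbae3, so the adult genes lie together at one end. The smaller one holds 4, in the order hbae4, hbbe3, hbbe2 and hbae5. The genes hbaa2, hbae1.3, hbae4 and hbae5 had no probe set under their own symbol and are not analysed here. The 13 probe sets comprise 3 for adult globins, 7 for embryonic globins and 1 each for slc4a1a, alas2 and gata1a.

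All levels below are the deposited GCRMA values, which are log2 expression values with 1 value per probe set. The table runs from 2.17, a lowest value at which 10.3% to 11.7% of probe sets sat on each array, to 16.1. Differences are GFP-positive minus GFP-minus, and a probe set was called at an adjusted p under 0.05 in limma over all 15502 probe sets. The sort was visible in the cone genes: 12 of 13 were higher in GFP-positive cells and none was lower, their summed level on the log2 scale was 16.6 to 17.0 in GFP-positive and 12.2 to 13.5 in GFP-minus cells, and gnat2 lay at 12.6, 12.9 and 13.1 in GFP-positive cells, against 6.24, 6.21 and 8.91 in GFP-minus cells. GFP-minus replicate 3 had the highest gnat2 level of its population. The call of gnat2 held in 1 of 6 fits with an array left out, and those of the other called cone genes in 1 to 6 of 6. The contrast was not limited to cone genes. Of 7 rod genes, 1 was called higher in GFP-positive cells and all 7 were higher at an unadjusted p under 0.05 (limma, list median 1.23). Of 7 Muller glia genes, 3 were called higher and 1 lower. The 18 hybridization-control probe sets averaged 9.89 to 10.4 on GFP-positive and 9.03 to 9.56 on GFP-minus arrays, and their part in the results was not tested beyond a scaling to them. In such bulk samples fewer cells of a type and less RNA per cell cannot be told apart.

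Of the 13 probe sets, 6 were lower in GFP-positive cells, none was higher and 7 did not pass the test (limma; also 6 lower and none higher at an unadjusted p under 0.05). Over all tested probe sets 4.69% were called lower and 2.99% higher. The 6 lower ones were the 3 adult globin probe sets, slc4a1a, alas2 and gata1a. None of the 7 embryonic globin probe sets was called (limma; also 0 at an unadjusted p under 0.05). Arrays did not overlap between the populations for 7 of the 13, all lower in GFP-positive cells, which held for 13.0% of all probe sets. A call with a difference over 10-fold was made for 5 of the 13 and for 1.58% of all probe sets. The median difference of the 13 probe sets was -1.003, against 0.011 for all probe sets tested. A filter on dim signals kept 7 of the 13, namely the 6 called probe sets and hbbe2. It needs 3 arrays at least 1 log2 unit above the lowest value, so bright GFP-minus arrays alone suffice, as for gata1a. Passing it is thus no separate evidence for a call.

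**Figure D1:**
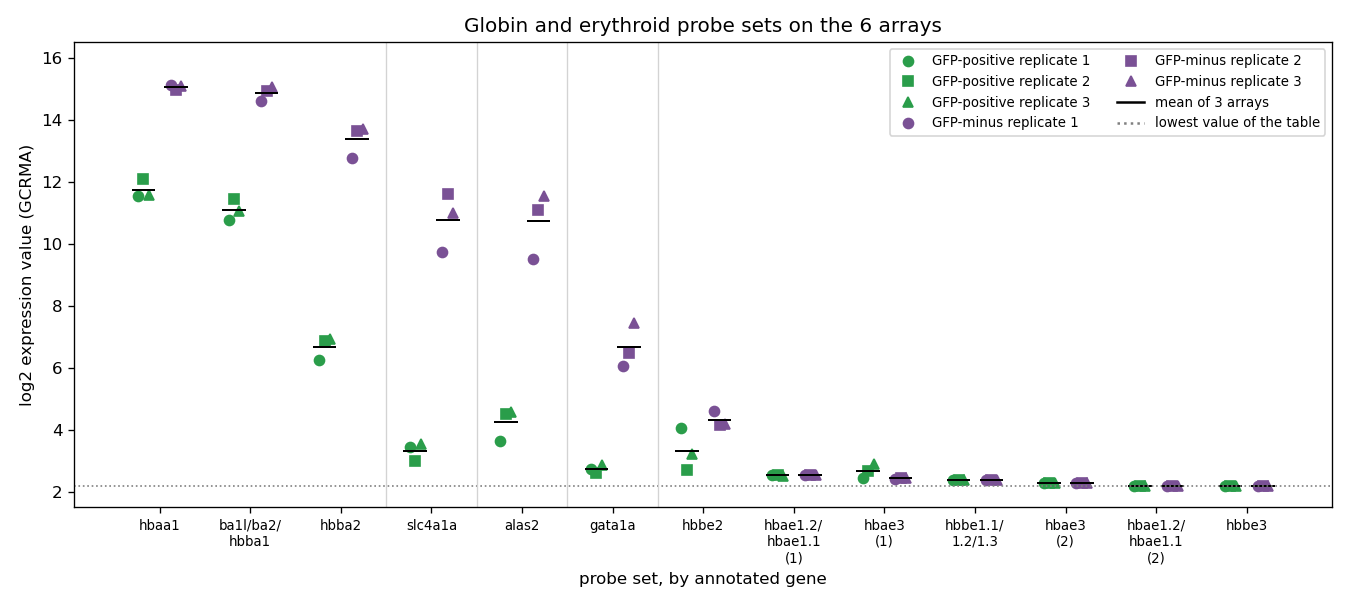
Log2 expression values (y axis) of the 13 globin and erythroid probe sets (x axis, by annotated gene) on each of the 6 arrays. Green symbols are GFP-positive and purple symbols GFP-minus arrays, the symbol shape gives the replicate number, black bars are means of 3 arrays and the dotted line is the lowest value of the table (2.17). The adult globins, slc4a1a, alas2 and gata1a do not overlap between the populations, and all embryonic probe sets but hbbe2 lie below 3 on every array.

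Adult globins were lower in GFP-positive cells at all 3 of their probe sets, by 9.98-fold to 103-fold. The α-globin gene hbaa1 lay at 11.5, 12.1 and 11.6 in GFP-positive cells, against 15.1, 15.0 and 15.1 in GFP-minus cells. Its GFP-minus arrays were tightly grouped (SD 0.080, n = 3) near the top of the scale, and the populations did not overlap. The level was 9.98-fold lower in GFP-positive cells (log2 difference -3.32, standard error 0.18, 95% interval -3.79 to -2.85, limma adjusted p = 0.00390). One β-globin probe set, annotated to ba1l, ba2 and hbba1 at once, lay at 10.8, 11.5 and 11.1 in GFP-positive cells, against 14.6, 14.9 and 15.1 in GFP-minus cells. Again no array of 1 population reached the other, and the difference was 13.8-fold (log2 -3.78, standard error 0.23, limma adjusted p = 0.00497).

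The third adult probe set differed by more on the log2 scale. The β-globin gene hbba2 lay at 6.23, 6.86 and 6.93 in GFP-positive cells, against 12.8, 13.6 and 13.7 in GFP-minus cells. All GFP-positive arrays were in the middle of the scale and all GFP-minus arrays were close to its top. The level was 103-fold lower in GFP-positive cells, with a 95% interval from 54.5-fold to 196-fold (log2 -6.69, standard error 0.35, limma adjusted p = 0.00373).

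Globin RNA remained measurable in the GFP-positive cells. On the linear scale hbaa1 had 8.79%, 12.9% and 8.87% of its mean GFP-minus level in GFP-positive replicates 1, 2 and 3. For the probe set of ba1l, ba2 and hbba1 these shares were 5.77%, 9.34% and 7.13%, and for hbba2 they ran between 0.712% and 1.15%. Within its array hbaa1 ranked at percentile 97.9 to 98.7 of all probe sets in GFP-positive cells and at 99.99 in GFP-minus cells. The rank of hbba2 was 64.0 to 69.7 in GFP-positive and 99.4 to 99.7 in GFP-minus cells. Probe sets differ in how strongly they bind, so these ranks do not order the genes among themselves. In GFP-minus cells hbaa1 and the probe set of ba1l, ba2 and hbba1 lay near the top of the scale. Their shares are thus not firm and cannot be set against that of hbba2.

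The anion exchanger gene slc4a1a lay at 3.42, 2.98 and 3.54 in GFP-positive cells, against 9.73, 11.6 and 11.0 in GFP-minus cells. It was near background in each GFP-positive array and bright in each GFP-minus array, with GFP-minus replicate 1 the lowest. The level was 176-fold lower in GFP-positive cells (log2 -7.46, standard error 0.54, limma adjusted p = 0.00669), and GFP-positive arrays held 0.452% to 0.667% of its mean GFP-minus level. A fold of this size rests on values close to the lowest one and thus on the background step.

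The heme synthesis gene alas2 lay at 3.62, 4.51 and 4.57 in GFP-positive cells, against 9.51, 11.1 and 11.5 in GFP-minus cells. The populations were far apart, and GFP-minus replicate 1 was again the lowest of its population. The level was 89.5-fold lower in GFP-positive cells (log2 -6.48, standard error 0.65, limma adjusted p = 0.0130). The call ended when GFP-positive replicate 2 or 3 or GFP-minus replicate 2 was left out (limma adjusted p = 0.0626, 0.0650 and 0.0602), and the difference was 136-fold without GFP-minus replicate 1.

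The transcription factor gene gata1a lay at 2.74, 2.61 and 2.85 in GFP-positive cells, against 6.06, 6.46 and 7.46 in GFP-minus cells. Its GFP-positive arrays were all within 1 log2 unit of the lowest value, and its GFP-minus arrays were at a middle level. The level was 15.2-fold lower in GFP-positive cells (log2 -3.93, standard error 0.40, limma adjusted p = 0.0132), a fold that also rests on the background step. Leaving out GFP-positive replicate 1, 2 or 3 or GFP-minus replicate 2 ended this call (limma adjusted p = 0.0511, 0.0679, 0.0671 and 0.0565). The calls of the 3 adult globin probe sets and of slc4a1a held with every single array left out.

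**Figure D2:**
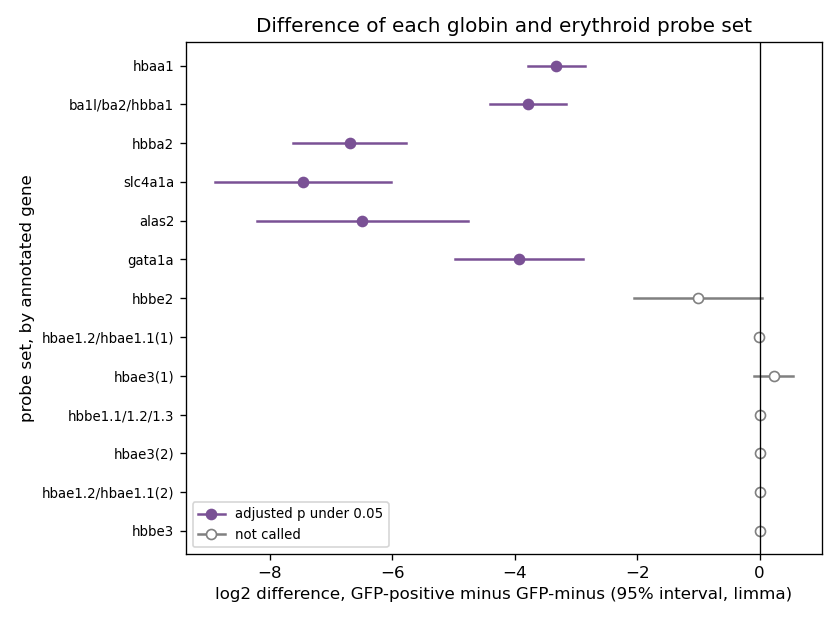
Log2 difference of GFP-positive minus GFP-minus (x axis) with its 95% interval from limma, for each of the 13 probe sets (y axis, by annotated gene). Filled purple points were called at an adjusted p under 0.05 and open grey points were not. The differences of hbba2, slc4a1a and alas2 lie between -6.48 and -7.46, those of hbaa1, gata1a and the probe set of ba1l, ba2 and hbba1 between -3.32 and -3.93, and most embryonic globins lie at 0.

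The sizes of the 6 called differences were compared in pairs. All 15 pairs were compared by the gap between both probe sets within each array, with an exact permutation test of 3 against 3 arrays (two-sided), which allows no p below 0.1. In 9 pairs the gaps did not overlap between the populations (exact p = 0.1 each, adjusted p = 0.167 over the 15 pairs). No pair could have passed a threshold of 0.05 in this test. These 9 pairs each set hbba2, slc4a1a or alas2 against hbaa1, gata1a or the probe set of ba1l, ba2 and hbba1. Among hbba2, slc4a1a and alas2 the gaps overlapped, and the exact p was 0.2 or more (0.8 for hbba2 against alas2). These sizes are not a firm order, since hbaa1 and the probe set of ba1l, ba2 and hbba1 lay near the top of the scale in GFP-minus cells, and slc4a1a and gata1a lay near its lowest value in GFP-positive cells.

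The embryonic globins showed little signal in either population. Of their 7 probe sets, 4 had the same value on all 6 arrays. These were hbbe3 and 1 probe set of hbae1.1 and hbae1.2 at the lowest value of 2.17, 1 probe set of hbae3 at 2.27 and the probe set shared by hbbe1.1, hbbe1.2 and hbbe1.3 at 2.37. A further probe set of hbae1.1 and hbae1.2 lay at 2.54 on 5 arrays and at 2.49 in GFP-positive replicate 3. At such values a level cannot be told from background. The other hbae3 probe set lay at 2.45, 2.66 and 2.89 in GFP-positive cells, against 2.42, 2.45 and 2.45 in GFP-minus cells. It stayed within 1 log2 unit of the lowest value on all arrays and was not called (log2 0.23, limma adjusted p = 0.377, -0.51 once arrays were scaled to the hybridization controls, and 0.45 with a call at 0.0340 once arrays were centred on their medians).

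The β-type gene hbbe2, of the smaller cluster, was the embryonic globin with a signal above this range. It lay at 4.04, 2.69 and 3.22 in GFP-positive cells, against 4.61, 4.16 and 4.19 in GFP-minus cells. The populations did not overlap, but GFP-positive replicate 1, at 4.04, came close to the nearest GFP-minus array, at 4.16. The difference of -1.003 (standard error 0.39, 95% interval -2.05 to 0.04) was not called (limma adjusted p = 0.253), but it was with the scaling to hybridization controls (-1.74, limma adjusted p = 0.00208). That scaling moved the median difference of all probe sets to -0.726 and raised their lower calls from 727 to 3251. The call of hbbe2 under it thus includes a shift of whole arrays. Within its array hbbe2 ranked at percentile 32.2 to 45.4 in GFP-positive cells and 44.7 to 48.7 in GFP-minus cells. Adult globins were thus called at 3 of 3 probe sets and embryonic ones at 0 of 7. Of those 7, only hbbe2 passed the dim filter, and the 4 of constant value could not be called as deposited. The difference between both kinds was not tested. With median centring, which also moves probe sets of constant value, 6 of the 7 embryonic probe sets were called higher in GFP-positive cells (limma adjusted p = 0.0340 to 0.0422), and the 3 adult ones were still called lower. That setting called 6151 of all 15502 probe sets higher, against 463 as deposited, so these 6 calls were not particular to embryonic globins.

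Other genes of heme and red cells were taken from 7 lists, of which 54 genes were measured. In these lists 14 genes were lower in GFP-positive cells, none was higher and 40 did not pass the test (limma; 18 lower and 1 higher at an unadjusted p under 0.05). Without slc4a1a, alas2 and gata1a, 11 of 51 genes were lower, with a median difference of -0.20 over the 51. Among all tested probe sets, 4.69% were called lower and the median difference was 0.011. This share includes dim probe sets, whereas each list gene is represented by its brightest one. With the dim filter, 15 genes of the 7 lists were lower, as were 1121 of the 9767 probe sets kept. Bright GFP-minus arrays alone suffice to pass this filter, as for sptb and tal1. The list genes that passed it were not counted, so the 15 cannot be set against the 1121 as a share and are no separate evidence. Leaving out single arrays moved the 14 to 9, 4 or 3 without GFP-positive replicate 1, 2 or 3 and to 11, 5 or 9 without GFP-minus replicate 1, 2 or 3. With the scaling to hybridization controls 26 were lower, and the lower calls over all 15502 probe sets rose from 727 to 3251.

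In the heme synthesis pathway 1 of 7 measured genes, alas2, was lower, none was higher and 6 were not called (limma; 2 lower and none higher at an unadjusted p under 0.05, list median -0.07). With the scaling to hybridization controls 2 were called lower. The gene alas1, which catalyses the same first step in other tissues, lay at 9.78, 9.91 and 10.6 in GFP-positive cells, against 9.86, 10.7 and 10.5 in GFP-minus cells. These levels overlapped (log2 -0.25, limma adjusted p = 0.733). Coproporphyrinogen oxidase, cpox, averaged 5.86 ± 0.30 in GFP-positive and 6.44 ± 0.09 in GFP-minus cells (SD, n = 3 arrays each), without overlap of arrays, and was not called (log2 -0.58, limma adjusted p = 0.148). The genes urod and alad, of steps between alas1 and cpox, had differences of 0.17 and 0.02. The probe sets of uros and of ferrochelatase (fech), which inserts the iron, stayed within 1 log2 unit of the lowest value on all arrays.

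Genes for the mitochondrial supply of heme synthesis and for iron showed few calls. None of 5 transporter and mitochondrial genes was called in either direction (limma; also 0 at an unadjusted p under 0.05), with differences from -0.17 to 0.25. The mitochondrial iron importer slc25a37 was at the lowest value on all arrays. Of 8 iron genes, 1 was lower: ncoa4, the receptor that delivers ferritin to lysosomes, was 3.20-fold lower in the GFP-positive population (limma adjusted p = 0.0232, call held in 1 of 6 fits with an array left out). The ferritin chain gene fth1a lay at 13.7, 13.0 and 13.5 in GFP-positive cells, against 13.9, 13.7 and 13.9 in GFP-minus cells (log2 -0.47, limma adjusted p = 0.308).

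Of 3 measured genes of heme disposal, 2 were lower in GFP-positive cells. Haptoglobin, hp, which binds hemoglobin set free in plasma, lay at 3.36, 3.20 and 3.02 in GFP-positive cells, against 8.23, 8.26 and 7.66 in GFP-minus cells. It was near background in each GFP-positive array and 29.1-fold lower there (limma adjusted p = 0.00320). Biliverdin reductase B, blvrb, averaged 4.03 ± 0.60 in GFP-positive and 8.12 ± 1.098 in GFP-minus cells (SD, n = 3 arrays each; 17.1-fold lower, limma adjusted p = 0.0397), and its call held in 1 of 6 fits with an array left out, that without GFP-minus replicate 1.

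The red cell membrane and its skeleton held the most negative difference of the 7 lists, that of slc4a1a. Of 10 measured genes, 5 were lower in GFP-positive cells, none was higher and 5 were not called (list median -1.34). Beside slc4a1a, the gene of protein 4.1, epb41b, which joins spectrin to actin, lay at 3.20, 2.86 and 3.18 in GFP-positive cells, against 8.84, 10.1 and 10.3 in GFP-minus cells. The arrays of both populations were far apart (102-fold lower, limma adjusted p = 0.00572). This fold, and that of sptb below, rest on GFP-positive values close to the lowest one and thus on the background step. The β-spectrin gene sptb was 22.1-fold lower, with a mean of 2.66 in GFP-positive and 7.12 in GFP-minus cells (limma adjusted p = 0.0119), and this call was lost when GFP-positive replicate 2 or 3 was left out (adjusted p = 0.0621 and 0.0650). The tropomodulin gene tmod4, of a family that caps actin filaments, was 5.78-fold lower and dematin (dmtn), which bundles actin, 2.94-fold lower (limma adjusted p = 0.0480 and 0.0226), and these calls held in 0 and 1 of 6 fits with an array left out. The water channel aqp1a.1 and adducin (add1) had high levels in both populations, with differences of -0.58 and 0.40. The genes mpp1 and stom had -1.12 and 0.61 (limma adjusted p = 0.211 and 0.257). Of the dimmer mpp1 probe sets, 1 was 3.26-fold to 5.35-fold lower over the fits with an array left out. Another was 1.29-fold to 2.33-fold lower, and each was called in 0 of these 6 fits.

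Of 13 erythroid regulators, 4 were lower in GFP-positive cells, none was higher and 9 were not called (list median -1.01). Klf1, which in mammals switches on adult β-globin, had the largest difference: klf1 lay at 3.22, 3.48 and 3.07 in GFP-positive cells, against 7.94, 7.92 and 9.28 in GFP-minus cells. No array overlapped, and the level was 34.9-fold lower (limma adjusted p = 0.00976), a fold that also rests on the background step. The call was lost without GFP-positive replicate 3 (limma adjusted p = 0.0570). The gene lmo2, whose product bridges Gata1 and Tal1, was 11.7-fold lower, and the kinase gene jak2a, which signals from the erythropoietin receptor, 6.49-fold lower (limma adjusted p = 0.0202 and 0.0191). Each call held in 1 of 6 fits with an array left out, without GFP-minus replicate 1 for lmo2 and without GFP-positive replicate 1 for jak2a. The gene tal1 lay at 2.17, 2.22 and 2.37 in GFP-positive cells, against 3.37, 5.30 and 5.00 in GFP-minus cells, and was not called (limma adjusted p = 0.101). The Gata1 cofactor gene ldb1a, which many cell types use, averaged 9.83 in GFP-positive and 9.18 in GFP-minus cells (limma adjusted p = 0.237), and klf3, cbfb and nfe2 were not called either.

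Enzymes that red cells share with other cells were mostly not called. Of 8 measured genes, 1 was lower in GFP-positive cells: the glutathione peroxidase gene gpx1a lay at 8.42, 7.47 and 8.16 in GFP-positive cells, against 11.4, 12.2 and 12.6 in GFP-minus cells (16.6-fold lower, limma adjusted p = 0.0139, call held in 3 of 6 fits with an array left out). The carbonic anhydrase gene cahz lay at 11.6, 12.0 and 12.2 in GFP-positive cells, against 11.4, 12.2 and 12.9 in GFP-minus cells. Both populations thus overlapped, at high levels. The carbonic anhydrase gene ca2 had a difference of 0.74, the peroxiredoxin gene prdx2 of -0.41 and the superoxide dismutase gene sod1 of -0.08, none of them called. Among 4 globins made outside red cells, myoglobin (mb) and neuroglobin (ngb) had differences of -0.15 and -0.44, and none was called (limma; 0 at an unadjusted p under 0.05).

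**Figure D3:**
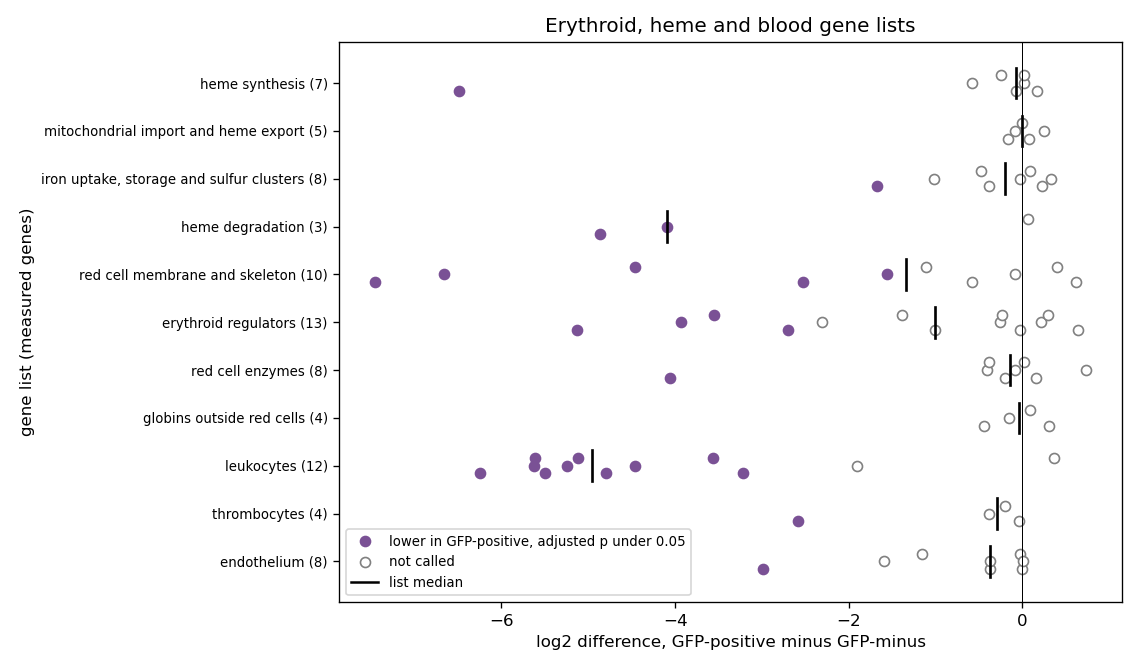
Log2 difference of GFP-positive minus GFP-minus (x axis) for the measured genes of 11 lists (y axis, with the number of measured genes). Filled purple points were called lower in GFP-positive cells, open points were not called and black bars are list medians. The heme synthesis genes other than alas2 lie between -0.58 and 0.17, while 5 of 10 membrane genes and 10 of 12 leukocyte genes were lower.

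Leukocyte markers were lower in GFP-positive cells along with the erythroid genes. Of 12 leukocyte genes, 10 were lower in GFP-positive cells, none was higher and the list median was -4.96. The 10 became 4 or 5 without GFP-positive replicate 2 or 3, 3 without GFP-minus replicate 2 and 3 at an adjusted p under 0.01. Their summed level, on the log2 scale, was 11.1 to 12.4 in GFP-positive and 15.2 to 15.7 in GFP-minus cells, and no gene of the list was at background on all arrays. Some genes named here, among them lmo2, jak2a and gpx1a, are also used by white blood cells, and the part of these cells in the differences was not tested. Of 4 thrombocyte genes, itga2b and gp1bb, which define the type, were near the lowest value, and 1, the coagulation factor gene f5, was lower (6.00-fold, limma adjusted p = 0.00438). Of 8 endothelial genes 1 was lower and the list median was -0.37.

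Within the GFP-minus population the erythroid genes varied between arrays. Replicate 1 was the lowest GFP-minus array for 5 of the 6 called globin and erythroid probe sets, and it was the highest for hbaa1. The SD over the 3 GFP-minus arrays was 1.07 for alas2, 0.95 for slc4a1a, 0.72 for gata1a and 0.51 for hbba2, against 0.24 and 0.080 for the shared β-globin probe set and hbaa1. The shared probe set and hbaa1 lay near the top of the scale in GFP-minus cells, so their SDs cannot be set against those of the others. Of the 14 called genes of the 7 lists, replicate 1 was lowest for 9 and replicate 3 highest for 12. For the 10 called leukocyte genes, replicate 1 was lowest for 9 and replicate 2 highest for 8. Most of these called genes were thus lowest in GFP-minus replicate 1, and the array highest for most of them differed between both kinds. Being lowest there was not particular to blood genes. In GFP-minus replicates 1, 2 and 3 the rod gene pde6a lay at 11.1, 11.6 and 12.8 and the Muller glia gene rlbp1a at 10.75, 10.89 and 11.22. The inner retinal neuron gene gad1b, at 12.1, 11.9 and 11.9, was instead highest in replicate 1. The arrays also differed as a whole. The medians over all probe sets were 4.78, 4.86 and 4.85 in GFP-minus replicates 1, 2 and 3, and the hybridization controls averaged 9.56, 9.41 and 9.03. The share of all probe sets that were lowest in replicate 1 was not counted, and the part of whole-array differences was not tested.

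**Figure D4:**
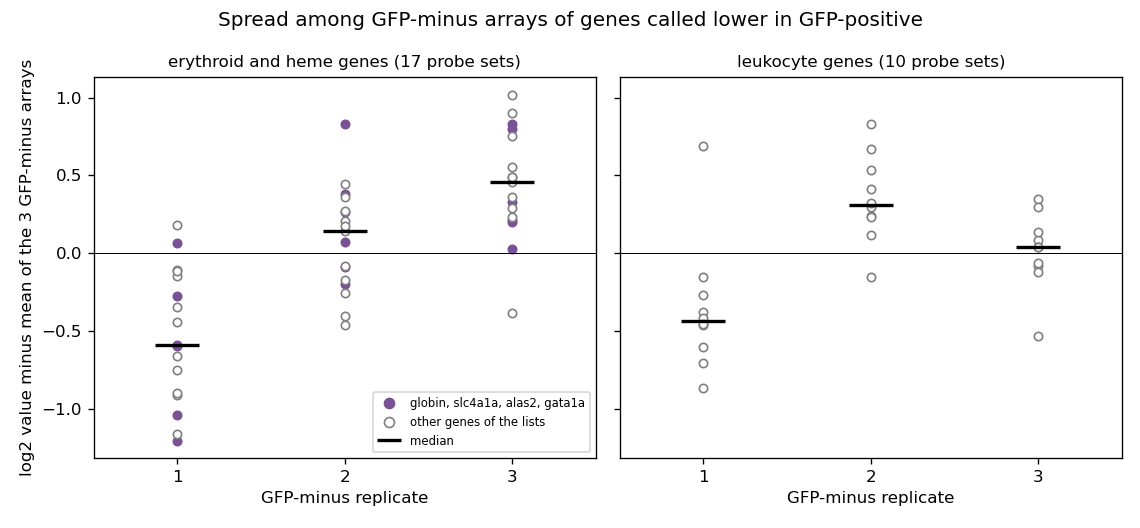
Log2 value minus the mean of the 3 GFP-minus arrays (y axis) in each GFP-minus replicate (x axis), for 17 erythroid and heme probe sets (left) and 10 leukocyte genes (right) called lower in GFP-positive cells. Filled purple points are globin, slc4a1a, alas2 and gata1a probe sets, open points other genes of the lists and black bars medians. Replicate 1 was lowest for 9 of the 10 leukocyte genes and for 5 of the 6 filled probe sets.

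The genes whose values over the 6 arrays were most like those of hbba2, slc4a1a and alas2 all had the same contrast between the populations. For hbba2 these were znfl2a, tuba5, klf6a, pttg1ipa and cmtm6 (Pearson's r over 6 arrays of 0.998 or more). For slc4a1a they were pfn1, ncf1, wasb, cst14b.1 and gata3 (r of 0.998 or more), and for alas2 septin6, si:dkey-222f8.3, klf6a, txnipa and cmtm6 (r of 0.996 to 0.999 after rounding). Of these, ncf1 encodes a subunit of the oxidase of phagocytes and gata3 a transcription factor of T cells. In all, 72, 115 and 48 of 9840 compared probe sets had an r above 0.99 with hbba2, slc4a1a and alas2. The 6 arrays share their 2 populations, so such an r mostly restates the contrast.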

How the data were processed

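Per the labels, each sample was 1 array, and the values the authors deposited are log2 expression. GCRMA is named in the submitters' processing notes; its version is not given in the sources here. This method corrects background by probe sequence, normalizes arrays to each other and summarises probe sets, so dim signals collect at shared low values and their folds depend on that step. Arrays have no read depth, and 3 arrays per population limit the precision. The 115 Affymetrix controls among 15617 probe sets were not tested. Names came from the platform annotation, updated by gene identifier through RefSeq (1 symbol changed). Gene identifiers of 12 of the 13 globin and erythroid probe sets were all in RefSeq. GFP-positive and GFP-minus arrays were compared with limma 3.58.1 (lmFit, eBayes) in R 4.3.3. Its two-sided p-values were adjusted by Benjamini-Hochberg across the 15502 probe sets. The same fit was run on simulated normal values with known differences added to probe sets above the median level. This does not check the fit for dim probe sets.

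A gene with several probe sets is represented in lists by the one with the highest mean. Named were all globin and erythroid probe sets, up to 6 called genes of each list with the largest difference, up to 4 bright uncalled genes of 4 lists, and the 5 genes most correlated with hbba2, slc4a1a and alas2. Further genes named (nfe2, uros, fech, slc25a37, fth1a, mb, ngb, itga2b, gp1bb, pde6a, rlbp1a and gad1b) were chosen after their values were seen. Genes and lists were chosen with earlier results of these data known. Alternatives tried were a block for the replicate number, a dim filter (3 arrays at least 1 above the lowest value), quantile normalization, median centring, scaling to 18 hybridization-control probe sets, a trended robust prior, leaving out each array, an adjusted p under 0.01 and the dimmest probe set per gene. Permutation tests used scipy 1.17.1 and figures matplotlib 3.10.9.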

Additional observations from a re-analysis of the deposited data

How the results depend on the processing

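The 6 lower globin and erythroid probe sets were 4 with the replicate number as a block, 7 under the hybridization-control scaling, 4 at an adjusted p under 0.01 and 4 to 6 without single arrays; the 3 lower globin probe sets stayed 3 in all alternatives but that scaling, where hbbe2 joined them (4; -1.74, limma adjusted p = 0.00208). The 14 lower genes of the erythroid and heme lists became 2 with the block, 26 under the hybridization-control scaling, 4 at an adjusted p under 0.01 and 3 to 11 without single arrays, and 9 genes of these lists were higher with median centring. Median centring set the median difference of all probe sets to 0.236 and the hybridization-control scaling to -0.726, against 0.011 as deposited; the call shares of all probe sets moved with them (1102 lower and 6151 higher, and 3251 lower and 195 higher, against 727 and 463). Those 727 and 463 were 256 and 194 with the block, 1121 and 861 with the dim filter, 201 and 50 at an adjusted p under 0.01, and 214 to 740 and 103 to 323 without single arrays. The directions of the 6 called probe sets held in every alternative. With median centring the dim probe set of hbae1.1 and hbae1.2 turned to 0.21 (limma adjusted p = 0.0422), and that of hbae3, once scaled to the hybridization controls, turned to -0.51. Any shift of whole arrays moves probe sets that sit at a constant value.

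The block ended the calls of slc4a1a, gata1a and epb41b (limma adjusted p = 0.0590, 0.0620 and 0.0532), among others, and left 1 of the 10 lower leukocyte genes called. Equal replicate numbers mark no stated pairing. The deviations of same-numbered arrays correlated at 0.555, 0.059 and 0.266, and those of differently numbered arrays at -0.443 to 0.357. Not every array correlated best with its own number. With 3 arrays per population these values cannot decide whether arrays were paired. Of the 17 called globin, erythroid and list probe sets, 12 lost their call with the block and 4 to 11 without single arrays, and none changed direction there. The cause was not tested.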
